A study of Mus musculus with 15 samples.

Results

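The D-type cyclins and their kinases are 5 mouse genes: the cyclins Ccnd1, Ccnd2 and Ccnd3 and the kinases Cdk4 and Cdk6. They were chosen by symbol from 46078 genes listed in the first count table and 13063 named genes in the second, of which 13057 were in both. In treated cells Ccnd3 and Cdk6 were between 3.04-fold and 6.86-fold lower than with DMSO, Ccnd2 was lower at very low levels, Cdk4 changed by at most 1.27-fold, and Ccnd1 was lower with adenosine but higher with AMP. All 5 had a line in each table and passed the filter on low counts in batch 1. In batch 2 that filter removed none of the 13063 named genes, whose lowest total was 101 counts. The set was put together with the direction of Ccnd1 under AMP and under adenosine already known, so its values are given as a description, with a standard error and without a test.

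The samples were muscle satellite cells, the stem cells of skeletal muscle, from mouse hindlimb, cultured with horse serum and exposed to a compound or to DMSO for 24 hours. In batch 1, cells received 0.05 mM adenosine, and the reference was DMSO. In batch 2, cells of strain C57BL/6J received 0.1 mM adenosine or 0.25 mM AMP, which is adenosine carrying a phosphate, and the reference was again DMSO. Each of the 5 groups had 3 libraries of RNA copied to cDNA by Smart-seq2, a protocol for small amounts of RNA. The labels give no strain for batch 1 and no age for either batch. Nothing in them ties replicate libraries to different mice or dishes, so the p-values measure only how far these libraries spread, and that spread may be technical. Adenosine dose changed together with batch, and the compound changed together with dose in batch 2, so within each pair these cannot be told apart.

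A D-type cyclin binds CDK4 or CDK6, and the complex phosphorylates the retinoblastoma protein and its relatives during G1, which releases E2F factors to switch on genes of DNA synthesis. INK4 proteins bind the kinases and block them, while CIP and KIP proteins bind cyclin-kinase complexes. In muscle, cyclin D1 is known as a growth-factor-induced cyclin that holds back MyoD activity in proliferating myoblasts, and Ccnd3 is known as a MyoD target that rises as myoblasts leave the cycle. All positions here are on GRCm38, with the exon annotation of the first count table. Ccnd1 (ENSMUSG00000070348) lies on chromosome 7 from 144929931 to 144939869 on the minus strand, with 3835 exon bases. Ccnd2 (ENSMUSG00000000184) lies on chromosome 6 from 127125162 to 127152193 on the minus strand, with 9409 exon bases. Ccnd3 (ENSMUSG00000034165) lies on chromosome 17 from 47505051 to 47599691 on the plus strand, with 8775 exon bases. Cdk4 (ENSMUSG00000006728) lies on chromosome 10 from 127063534 to 127067920 on the plus strand, with 3249 exon bases. Cdk6 (ENSMUSG00000040274) lies on chromosome 5 from 3341485 to 3531008 on the plus strand, with 13989 exon bases. Each of the 5 genes shares exon bases with at least 1 gene of the other strand, and no source used here says that strand was counted.

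Ccnd3 and Cdk6 had lower levels in every treated group than in DMSO, while Cdk4 moved little, so the bases upstream of their starts are shown side by side. The 250 bases before each start annotated in RefSeq (GRCm38.p6) were taken, and RefSeq held 4 windows for 3 of the 5 genes. For Cdk6 the RefSeq start lies downstream of 3341485, the start in the count table's annotation, so the Cdk6 window falls inside the span given above. Ccnd1 and Ccnd2 are named only. Capitals mark the palindromic E-box CACGTG, the core TGACGT of the cAMP response element and the FOXO site TGTTTAC.
Cdk6, chr5:3343643-3343892 (+): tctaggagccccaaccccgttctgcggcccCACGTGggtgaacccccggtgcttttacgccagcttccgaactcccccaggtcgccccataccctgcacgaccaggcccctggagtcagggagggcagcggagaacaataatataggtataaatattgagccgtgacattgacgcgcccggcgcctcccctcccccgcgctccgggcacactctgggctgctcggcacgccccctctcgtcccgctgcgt
Cdk4, chr10:127063285-127063534 (+): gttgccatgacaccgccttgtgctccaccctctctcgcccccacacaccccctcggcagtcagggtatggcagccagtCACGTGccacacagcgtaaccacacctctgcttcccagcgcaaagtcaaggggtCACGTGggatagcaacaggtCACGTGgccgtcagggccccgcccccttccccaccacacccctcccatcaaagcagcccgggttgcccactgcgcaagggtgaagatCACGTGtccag
Ccnd3, upstream start, chr17:47504801-47505050 (+): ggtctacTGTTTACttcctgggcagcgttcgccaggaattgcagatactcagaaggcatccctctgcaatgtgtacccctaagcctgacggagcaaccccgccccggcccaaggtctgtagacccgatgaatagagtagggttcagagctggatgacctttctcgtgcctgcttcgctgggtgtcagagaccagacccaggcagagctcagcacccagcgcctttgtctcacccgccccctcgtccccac
Ccnd3, downstream start, chr17:47593217-47593466 (+): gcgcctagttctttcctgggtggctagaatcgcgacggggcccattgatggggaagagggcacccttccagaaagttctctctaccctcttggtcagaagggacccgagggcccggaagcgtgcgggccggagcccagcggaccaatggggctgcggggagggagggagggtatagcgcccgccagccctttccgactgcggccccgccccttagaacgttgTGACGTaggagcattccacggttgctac
The Cdk4 window held 4 CACGTG motifs, whose first bases lie 172, 118, 98 and 11 bases before the start, and the Cdk6 window held 1, which lies 220 bases before it. CACGTG was found in 6.02% of the 32851 windows of this length in the RefSeq table. Of the 2 Ccnd3 windows, the upstream one held TGTTTAC 243 bases before its start, a motif in 3.17% of windows. The downstream one held TGACGT 28 bases before its start, a motif in 6.47% of windows. Both strands were searched for 7 motifs, and the full element TGACGTCA, which contains TGACGT, the AP-1 site TGAGTCA and the E2F letters TTTCGCGC, TTTGGCGC, TTTCCCGC and TTTGCCGC had no match in these 4 windows. The GC box GGGCGG, left in lower case, is in 32.7% of all windows and in 3 of these 4. A match describes letters in the window, not a bound site.

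Each library held between 14683346 and 20799588 counts (batch 1) or between 11107450 and 14201933 counts (batch 2). Between 5.37% and 11.4% of the counts in batch 1, and between 15.3% and 21.2% in batch 2, fell on 4 genes like ribosomal RNA. Summed over 5 markers of satellite cells and myoblasts (Pax7, Myf5, Myod1, Des and Cdh15), levels were 1629 to 2292 CPM (counts scaled to the library total) with adenosine and 4353 to 4447 CPM with DMSO in batch 1. In batch 2 they were 1309.5 to 1604 CPM with adenosine, 1562 to 1938 CPM with AMP and 3085 to 3601 CPM with DMSO. Myod1 and Des carried most of these sums, and the 5 genes did not move alike. Pax7, the defining factor of satellite cells, was not called with adenosine in batch 1 (log2 fold change -0.16, adjusted p = 0.367 by edgeR) and rose in batch 2 by 0.35 with adenosine (adjusted p = 0.00292) and by 0.62 with AMP (adjusted p = 2.5e-05). Myf5, an early myogenic factor, fell with adenosine in batches 1 and 2 (-0.67, adjusted p = 0.00288, and -0.90, adjusted p = 1.79e-07) and had -0.18 with AMP (adjusted p = 0.0761). Markers of fibro-adipogenic progenitors (6 in the batch 1 table, 3 in that of batch 2) summed to 314 to 391 CPM with adenosine and 342 to 446 CPM with DMSO in batch 1. In batch 2 they summed to 287 to 305 CPM with adenosine, 390.0 to 433 CPM with AMP and 328 to 402 CPM with DMSO. Cd34 and Gsn carried most of these sums, at means of 241 and 96.1 CPM with adenosine and 255 and 117 CPM with DMSO in batch 1. Pdgfra averaged 0.993 CPM with adenosine and 0.347 CPM with DMSO in batch 1 and was not among the 3 of batch 2. Markers of myocytes, endothelial cells, leukocytes and smooth muscle cells summed to at most 47.6 CPM in any library. Of these, leukocyte markers (5 listed in batch 1, of which Cd3e was at 0 throughout) had 11.6 to 18.0 CPM with adenosine and 1.20 to 2.90 CPM with DMSO in batch 1. Cd68 carried most of that sum, at means of 12.9 CPM with adenosine and 1.86 CPM with DMSO. In batch 2 the only one listed, Cd68, had 10.7 to 13.2 CPM with adenosine, 10.7 to 14.1 CPM with AMP and 1.57 to 3.10 CPM with DMSO. Endothelial markers had 18.0 to 22.5 CPM with adenosine and 5.10 to 6.72 CPM with DMSO in batch 1, and 9.15 to 10.3 CPM with adenosine, 9.24 to 12.7 CPM with AMP and 2.00 to 5.26 CPM with DMSO in batch 2. Tek carried most of these sums, at means of 17.9 CPM with adenosine and 4.49 CPM with DMSO in batch 1. There Pecam1 and Cdh5, both below 2 CPM on average, were not called (adjusted p = 0.483 and 0.451 by edgeR). In these bulk samples, fewer cells of a type and less RNA per cell cannot be told apart. The part of these marker shifts in the results below was not tested.

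Levels of different genes are set beside each other as FPKM, which divides by gene length, and within a batch. The genes kept 1 order of mean FPKM in each of the 5 groups, with Cdk4 first, then Ccnd1, Ccnd3, Cdk6 and Ccnd2. In DMSO of batch 2, Cdk4 averaged 186 ± 6.09 FPKM, Ccnd1 71.1 ± 2.82, Ccnd3 28.4 ± 4.01, Cdk6 23.6 ± 1.25 and Ccnd2 0.511 ± 0.0861 (SD, n = 3). Neighbours in this order stood apart in every group except Ccnd3 and Cdk6, whose library ranges overlapped with AMP (7.23 to 10.6 against 6.53 to 9.53 FPKM) and in DMSO of batch 2 (23.8 to 31.3 against 22.4 to 24.9 FPKM).

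**Figure D1:**
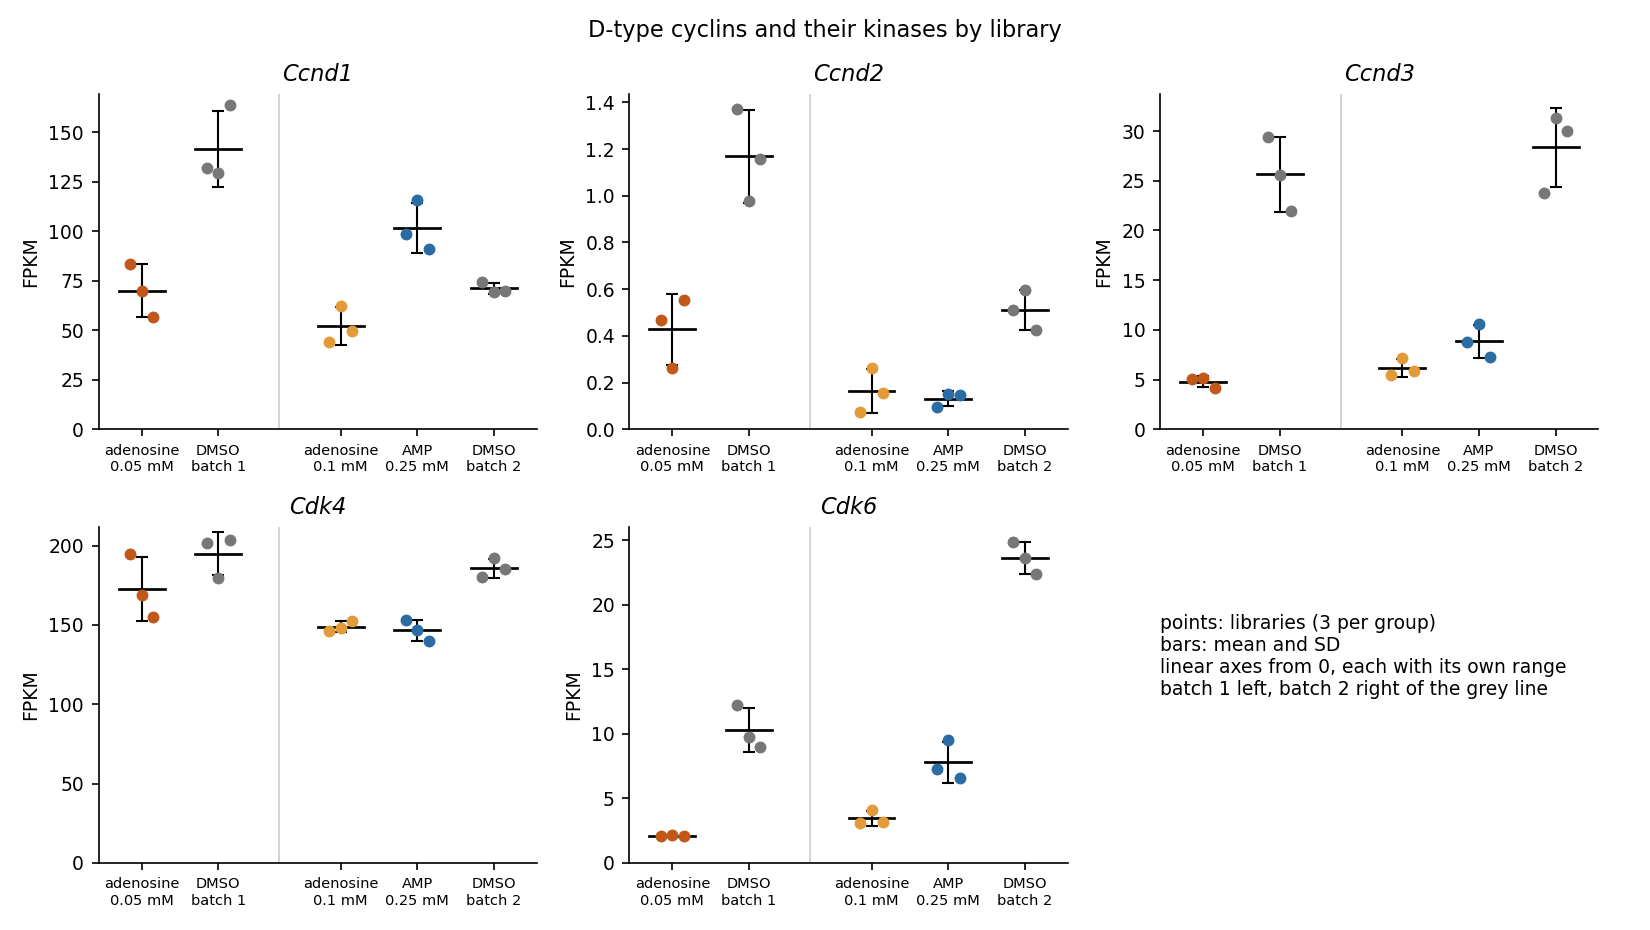
FPKM of Ccnd1, Ccnd2, Ccnd3, Cdk4 and Cdk6 in each library (points), with the mean and SD of each group (bars), batch 1 left and batch 2 right of the grey line in each panel. Ccnd3 and Cdk6 lie below their DMSO libraries in every treated library, and Ccnd1 lies below DMSO with adenosine (means 69.9 against 142, and 52.0 against 71.1) and above it with AMP (102 against 71.1).

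Ccnd1, which encodes cyclin D1, was lower with adenosine and higher with AMP. It had 83.3, 69.8 and 56.5 FPKM in the adenosine libraries of batch 1, against 132, 129 and 163 FPKM in the DMSO libraries of that batch. The groups did not overlap, and the log2 fold change was -1.01 (SE 0.15), 2.01-fold lower with adenosine. Batch 2 libraries had 43.9, 62.4 and 49.9 FPKM with adenosine and 98.4, 116 and 91.1 FPKM with AMP, against 74.4, 69.2 and 69.8 FPKM with DMSO. All adenosine libraries lay below the DMSO libraries and all AMP libraries above them in FPKM, with log2 fold changes of -0.46 (SE 0.11) for adenosine and 0.52 (SE 0.11) for AMP. Scaled to library totals alone, adenosine replicate 2 lay above DMSO, at 267 CPM against 231 to 258 CPM. AMP over adenosine was 0.98 (SE 0.11) on the log2 scale and thus 1.97-fold higher with AMP. Ccnd1 shares exon bases with LTO1 on the plus strand, which itself had a log2 fold change of 0.49 with adenosine (SE 0.14, adjusted p = 0.00617) and 0.41 with AMP (SE 0.14, adjusted p = 0.0206) in batch 2, by edgeR's quasi-likelihood test with Benjamini-Hochberg adjustment, the test behind every adjusted p below unless another is named.

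Ccnd3, which encodes cyclin D3, fell in all 3 comparisons with DMSO. In batch 1 it had 5.03, 5.18 and 4.20 FPKM with adenosine, against 29.4, 25.6 and 21.9 FPKM with DMSO. That is 5.31-fold lower with adenosine, or -2.41 on the log2 scale (SE 0.14, adjusted p = 3.53e-07). Its level in batch 2 was 5.49, 7.14 and 5.86 FPKM with adenosine and 8.75, 10.6 and 7.23 FPKM with AMP, against 23.8, 31.3 and 30.0 FPKM with DMSO. The highest treated library was thus below the lowest DMSO library in both batches. The log2 fold change was -2.21 (SE 0.14, adjusted p = 1.7e-09) for adenosine and -1.68 (SE 0.13, adjusted p = 3.56e-08) for AMP, 4.62-fold and 3.20-fold lower. Bysl, which overlaps Ccnd3 on the other strand, fell with adenosine in batch 2 by 0.60 on the log2 scale (adjusted p = 3.09e-06) and with AMP by 0.32 (adjusted p = 0.00125), and in batch 1 had a log2 fold change of -0.17 (adjusted p = 0.404).

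Ccnd2, which encodes cyclin D2, was the lowest of the 5 and also fell in all 3 comparisons with DMSO. It had 69, 43 and 97 reads with adenosine in batch 1, against 254, 132 and 163 reads with DMSO. Batch 2 gave 9, 35 and 19 reads with adenosine and 10, 17 and 18 reads with AMP, against 62, 56 and 44 reads with DMSO. No treated library reached the level of a DMSO library of its batch, and few reads lie behind each value. The log2 fold changes were -1.44 (SE 0.32, adjusted p = 0.00353) in batch 1, -1.63 (SE 0.37, adjusted p = 0.00113) for adenosine in batch 2 and -1.95 (SE 0.39, adjusted p = 0.000399) for AMP. The fall in batch 1 was not called by limma on log2(FPKM + 1) without a filter on low values, a scale that understates changes of low genes (log2 difference -0.60, adjusted p = 0.0714).

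Cdk6, the less abundant kinase, fell in all 3 comparisons with DMSO. In batch 1 it had 2.04, 2.18 and 2.06 FPKM with adenosine, against 12.2, 9.78 and 8.94 FPKM with DMSO. This was 4.88-fold lower with adenosine, or -2.29 on the log2 scale (SE 0.14, adjusted p = 4.84e-07). In batch 2 it had 3.06, 4.12 and 3.19 FPKM with adenosine and 7.25, 9.53 and 6.53 FPKM with AMP, against 24.9, 23.6 and 22.4 FPKM with DMSO. The 3 groups of batch 2 did not overlap: adenosine was lowest, AMP intermediate and DMSO highest. The log2 fold changes were -2.78 (SE 0.13, adjusted p = 1.27e-10) for adenosine and -1.60 (SE 0.13, adjusted p = 3.2e-08) for AMP. Among all tested genes, 2.04% had a lower log2 fold change than Cdk6 with adenosine in batch 2, and 5.05% with AMP.

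Cdk4, the more abundant kinase, changed little. In batch 1 it had 195, 169 and 155 FPKM with adenosine, against 202, 179 and 203 FPKM with DMSO, and the groups overlapped. The log2 fold change of -0.16 (SE 0.12, adjusted p = 0.298) had a 95% interval of -0.42 to 0.09. With adenosine in batch 2 it had 146, 148 and 153 FPKM, with AMP 153, 147 and 139.7 FPKM, against 180.1, 192 and 185 FPKM with DMSO. It fell by 0.33 on the log2 scale with adenosine (SE 0.066, adjusted p = 0.000389) and by 0.34 with AMP (SE 0.066, adjusted p = 0.000326), which are 1.25-fold and 1.27-fold lower. Its treated libraries lay below DMSO in FPKM, but in CPM the adenosine libraries, at 497 to 549, overlapped with DMSO, at 528 to 543. With library totals in place of the scaling factors, which moves the median of all genes up by 0.32 and 0.28, both calls were lost (-0.017, adjusted p = 0.845 for adenosine, and -0.073, adjusted p = 0.398 for AMP). Tspan31, which overlaps Cdk4 on the other strand, rose in the same libraries by 0.33 with adenosine (adjusted p = 0.00134) and 0.23 with AMP (adjusted p = 0.0151).

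Apart from Ccnd1, 3 of the 4 genes were called lower with adenosine in batch 1 at an adjusted p under 0.05, where 19.5% of the 13842 tested genes were called lower. All 4 were called lower in batch 2, both with adenosine, where 34.5% of 13063 tested genes were called lower, and with AMP, where 31.8% were. These comparisons were known when the set was chosen, and the adenosine and AMP comparisons of batch 2 share their DMSO libraries, so nothing is read from these counts. The median log2 fold change over all 5 genes was -1.44, against 0.03 over all tested genes, in batch 1. In batch 2 it was -1.63 against 0.01 with adenosine and -1.60 against 0.01 with AMP.

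**Figure D2:**
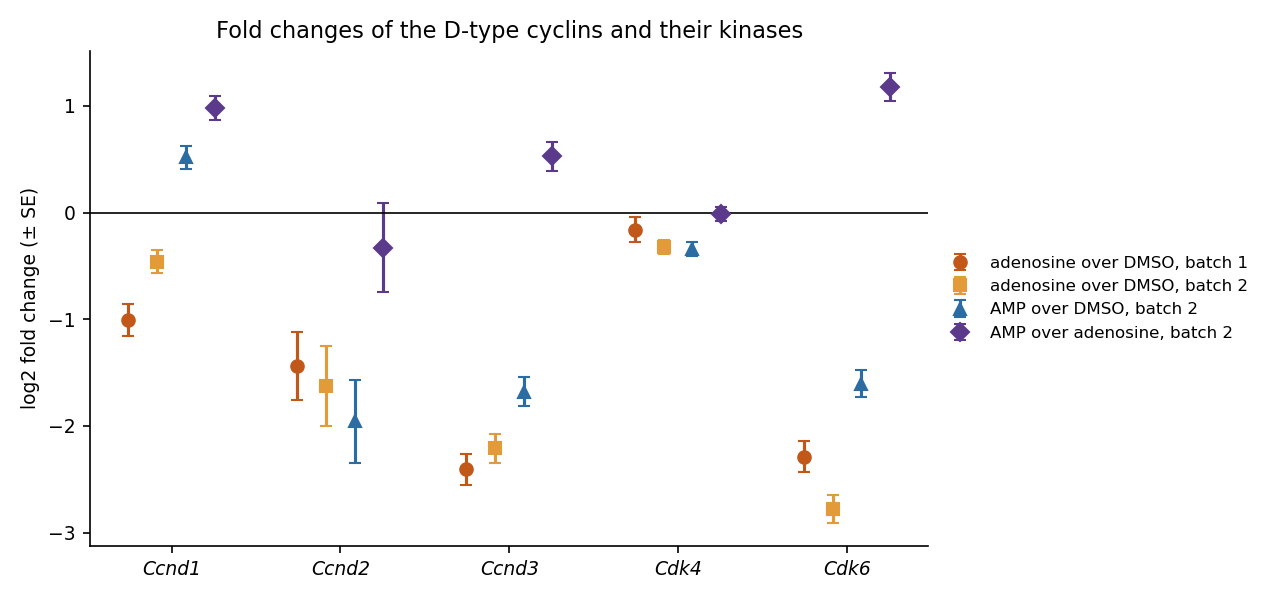
Log2 fold changes of the 5 genes (points) with their standard errors (bars) in 4 comparisons, from the fits of batch 1 and batch 2. Ccnd1 stands at -1.01 and -0.46 with adenosine over DMSO and at 0.52 with AMP over DMSO, Ccnd3 and Cdk6 lie between -1.60 and -2.78 in all 3 comparisons with DMSO, and Cdk4 stays between -0.34 and -0.01 throughout.

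Between the treated groups of batch 2, Cdk6 and Ccnd3 were higher with 0.25 mM AMP than with 0.1 mM adenosine, and the doses differ. Cdk6 was 2.26-fold higher with AMP, or 1.18 on the log2 scale (SE 0.13, adjusted p = 9.47e-05), with all 3 AMP libraries above all 3 adenosine libraries. Ccnd3 was 1.44-fold higher with AMP, at 0.53 (SE 0.14, adjusted p = 0.0283), also with no overlap. These are 2 of the 4 genes other than Ccnd1, where 4.52% of tested genes were called higher. The Ccnd3 call was lost without adenosine replicate 1 (adjusted p = 0.0927) or 3 (adjusted p = 0.129) and without AMP replicate 1 (adjusted p = 0.0728) or 2 (adjusted p = 0.134). Ccnd2 stood at -0.33 on the log2 scale (SE 0.42, adjusted p = 0.736) with a 95% interval of -1.22 to 0.57. Cdk4 had -0.01 (SE 0.066, adjusted p = 0.944) with an interval of -0.15 to 0.13, so a difference of more than 0.15 in either direction lies outside it.

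The adenosine effect in batch 2 (0.1 mM) was set against that in batch 1 (0.05 mM) in 1 fit of all 15 libraries, where 11.9% of 13057 genes were called in either direction. Of the 4 genes other than Ccnd1, 0 were called by edgeR, 1 of them with an unadjusted p under 0.05. That was Cdk6, whose fall was larger in batch 2 by -0.49 on the log2 scale (SE 0.19, unadjusted p = 0.021, adjusted p = 0.107, 95% interval -0.89 to -0.08). The adjusted p was 0.0471 without adenosine replicate 2 of batch 2 and 0.0371 without DMSO replicate 1 of batch 1. The difference was 0.20 (SE 0.20, adjusted p = 0.549) for Ccnd3, -0.16 (SE 0.12, adjusted p = 0.425) for Cdk4 and -0.19 (SE 0.49, adjusted p = 0.837) for Ccnd2. For Ccnd1, whose fold change with adenosine was nearer 0 in batch 2, it was 0.55 (SE 0.20).

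The make-up of the D-type cyclin pool differed between treated and DMSO libraries. Ccnd1 made up 92.9 ± 0.796% of the summed FPKM of the 3 cyclins with adenosine and 83.9 ± 3.37% with DMSO in batch 1 (SD, n = 3 each). In batch 2 it made up 89.1 ± 0.344% with adenosine, 91.9 ± 0.517% with AMP and 71.2 ± 3.69% with DMSO. Ccnd3 took most of the rest, at 6.47 ± 0.694% with adenosine and 15.4 ± 3.28% with DMSO in batch 1, and at 10.6 ± 0.452% with adenosine, 7.95 ± 0.538% with AMP and 28.3 ± 3.69% with DMSO in batch 2. The treated libraries did not overlap with DMSO in either share. The summed cyclin FPKM was 58.4 ± 10.4 with adenosine, 111 ± 14.2 with AMP and 100.02 ± 1.24 with DMSO in batch 2, and the AMP libraries, at 98.4 to 126, overlapped with DMSO at 98.7 to 101. In batch 1 it was 75.1 ± 13.8 with adenosine and 168 ± 16.1 with DMSO. Both the share of Ccnd3 and the summed level contain Ccnd1, whose direction chose the set. The share of Ccnd3 was lower with AMP than with adenosine although its own level was higher, at 8.85 FPKM with AMP and 6.16 FPKM with adenosine on average.

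**Figure D3:**
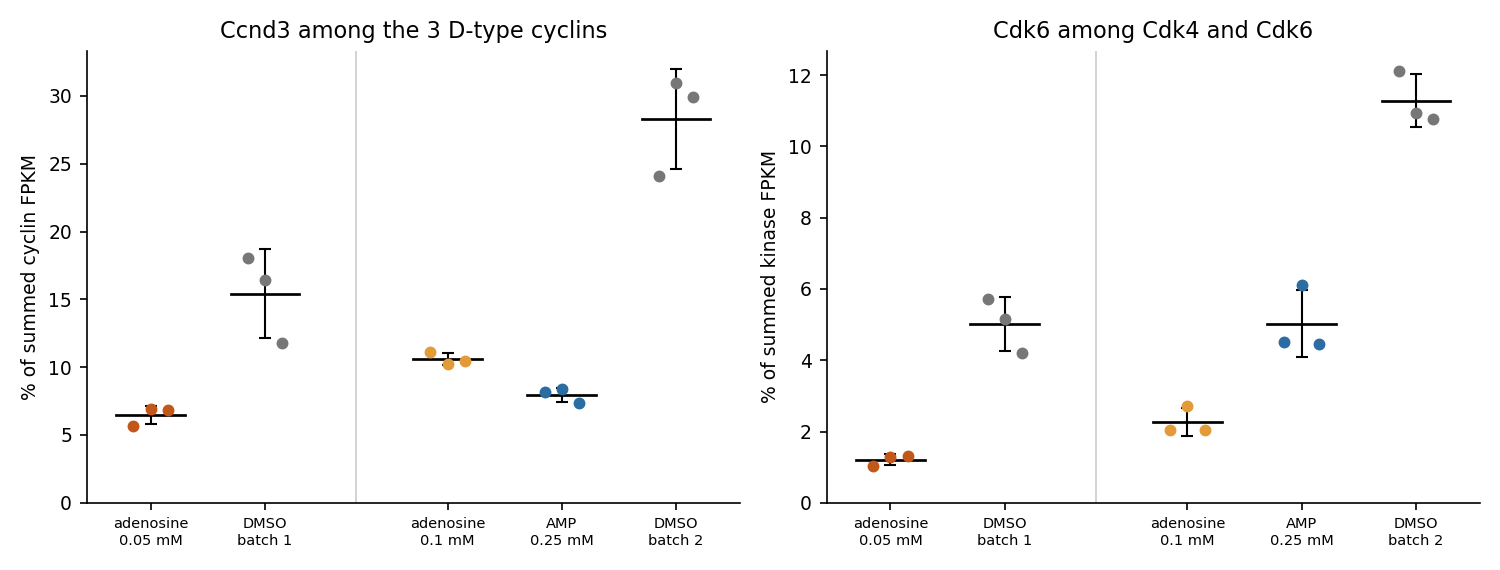
Share of Ccnd3 in the summed FPKM of the 3 D-type cyclins (left, %) and of Cdk6 in the summed FPKM of Cdk4 and Cdk6 (right, %) in each library (points), with group means and SD (bars). Every treated library lies below the DMSO libraries of its batch, and the AMP libraries lie below the adenosine libraries for Ccnd3 (means 7.95% and 10.6%) and above them for Cdk6 (means 5.03% and 2.27%).

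Among the kinases, Cdk6 made up 1.21 ± 0.151% of the summed FPKM of Cdk4 and Cdk6 with adenosine and 5.03 ± 0.757% with DMSO in batch 1. In batch 2 the share was 2.27 ± 0.384% with adenosine, 5.03 ± 0.932% with AMP and 11.3 ± 0.734% with DMSO, and the 3 groups did not overlap. Summed kinase FPKM in batch 2 was 152 ± 3.22 with adenosine, 154 ± 7.34 with AMP and 209 ± 5.70 with DMSO. In batch 1 it was 175 ± 20.2 with adenosine and 205 ± 13.9 with DMSO, and the libraries overlapped (157 to 197 against 189 to 214). Cdk4 carried most of the kinase transcripts in every group. In CPM, Cdk4 averaged 527 with adenosine, 507 with AMP and 534 with DMSO in batch 2. Its calls there were lost under library totals, so the lower summed FPKM in batch 2 depends on the scaling. These shares follow from the same FPKM as the levels above and are given without a test.

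Downstream of the D-type cyclins, the genes of the cyclin E and CDK2 step all fell. The 5 genes of this list (Ccne1, Ccne2, Cdk2, Cdc25a and Ccna2) were called lower in 5 of 5 cases in each comparison with DMSO, with a median log2 fold change of -3.13 with adenosine in batch 1, -2.50 with adenosine in batch 2 and -2.67 with AMP. Of all tested genes, 19.5%, 34.5% and 31.8% were called lower in those comparisons. Ccne1, a cyclin of the step into S phase, had log2 fold changes of -3.83 (SE 0.36, adjusted p = 6.78e-06), -2.96 (SE 0.30, adjusted p = 3.41e-07) and -3.76 (SE 0.32, adjusted p = 8.14e-08) in those comparisons. Ccne2 had -3.13, -2.50 and -2.67, and the kinase gene Cdk2 had -1.43, -1.63 and -1.80. Between AMP and adenosine 0 of the 5 were called by edgeR, and Ccne1 had -0.80 (SE 0.34, adjusted p = 0.198). It was called with the replicate block (-0.79, adjusted p = 0.0424) and without AMP replicate 2 (-1.30, adjusted p = 0.0466).

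The E2F and DP factors, some of which the pocket proteins hold in check, fell with few exceptions. Of 10 genes, 8 were called lower and 0 higher with adenosine in batch 1, and 9 lower and 1 higher with adenosine and with AMP in batch 2. The shares of all tested genes were 19.5% lower and 19.6% higher in batch 1, 34.5% lower and 34.9% higher with adenosine in batch 2, and 31.8% lower and 33.7% higher with AMP. The median log2 fold change was -1.32, -1.48 and -1.22 in that order. E2f1, an activating E2F, had -3.03 (SE 0.28, adjusted p = 5.89e-06) with adenosine in batch 1, -1.61 (SE 0.19, adjusted p = 2.2e-06) with adenosine in batch 2 and -1.63 (SE 0.20, adjusted p = 2.81e-06) with AMP. The largest changes were in the repressive members E2f8 and E2f7, at -5.44 and -4.00 in batch 1, -3.48 and -2.81 with adenosine in batch 2, and -3.37 and -3.34 with AMP. The batch 1 values (SE 0.60 and 0.55) rest on few reads. With adenosine E2f8 averaged 0.303 ± 0.217 CPM there and E2f7 0.738 ± 0.531 CPM. Between AMP and adenosine 0 of 10 were called by edgeR.

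The inhibitors were split. Of the CIP and KIP genes, Cdkn1a (p21) rose by 0.81 (SE 0.15, adjusted p = 0.000942) with adenosine in batch 1, by 0.53 (SE 0.07, adjusted p = 6.24e-06) with adenosine in batch 2 and by 0.56 (SE 0.07, adjusted p = 4.69e-06) with AMP on the log2 scale. Cdkn1c (p57) rose as well. It averaged 6.61 ± 1.45 CPM with adenosine and 0.512 ± 0.454 CPM with DMSO in batch 1. In batch 2 Cdkn1c averaged 4.77 ± 0.802 CPM with adenosine, 3.50 ± 0.719 CPM with AMP and 0.173 ± 0.155 CPM with DMSO (SD, n = 3, adjusted p = 0.00143, 5.8e-07 and 3.15e-06 for the 3 comparisons). Cdkn1b (p27) was not called with adenosine in batch 1, with adenosine in batch 2 or with AMP, at -0.27, 0.04 and 0.19 (adjusted p = 0.293, 0.864 and 0.368), but under library totals it was called with AMP (0.46, adjusted p = 0.0388). Of 4 INK4 genes, 3 were tested. Cdkn2b (p15) rose in batch 2 by 1.25 with adenosine (adjusted p = 0.000133) and 0.82 with AMP (adjusted p = 0.00527), while Cdkn2d (p19) fell by 1.40 (adjusted p = 9.34e-05) and 1.94 (adjusted p = 7.42e-06). In batch 1 Cdkn2d had -0.54 (adjusted p = 0.303). In batch 1 Cdkn2b had a log2 fold change of 0.96 (adjusted p = 0.0171), a call that was lost without adenosine replicate 1 (adjusted p = 0.0806) or 2 (adjusted p = 0.0577) and without DMSO replicate 1 (adjusted p = 0.0641). Cdkn2c (p18) had 0.05 (adjusted p = 0.886), -0.16 (adjusted p = 0.305) and -0.48 (adjusted p = 0.00685), the last with AMP and lost under library totals (-0.21, adjusted p = 0.23).

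The pocket proteins bind E2F factors and are the substrates of the cyclin D kinases. Of their genes, Rbl1 (p107) fell in all 3 comparisons with DMSO, at -1.07 (adjusted p = 0.00639), -1.46 (adjusted p = 2.94e-08) and -1.46 (adjusted p = 4.85e-08). Rbl2 was not called with adenosine in batch 1 (0.15, adjusted p = 0.501) or with AMP (0.09, adjusted p = 0.643). With adenosine in batch 2 Rbl2 rose by 0.47 (adjusted p = 0.0157), a call lost in 3 of 9 fits that left out 1 library. Rb1, the retinoblastoma gene, was -0.39 (adjusted p = 0.122) with adenosine in batch 1, -0.51 (SE 0.14, adjusted p = 0.0039) with adenosine in batch 2 and 0.01 (adjusted p = 0.95) with AMP. Under library totals the call of Rb1 in batch 2 was lost (-0.20, adjusted p = 0.204). AMP over adenosine was 0.52 for Rb1 (SE 0.14, adjusted p = 0.033), with adjusted p-values from 0.0137 to 0.138 as each of the 9 libraries was left out, 5 of them past 0.05. Myc, a transcription factor known to act on cyclin D genes, had log2 fold changes of -0.09 (adjusted p = 0.652), -0.22 (adjusted p = 0.0355) and 0.10 (adjusted p = 0.336) against DMSO, and 0.32 (adjusted p = 0.0413) for AMP over adenosine. Under library totals Myc was called higher with AMP than with DMSO (0.36, adjusted p = 0.00142). Neither Myc call held throughout: with 1 library left out, the adjusted p ran from 0.0142 to 0.169 for adenosine in batch 2 and from 0.024 to 0.182 for AMP over adenosine.

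**Figure D4:**
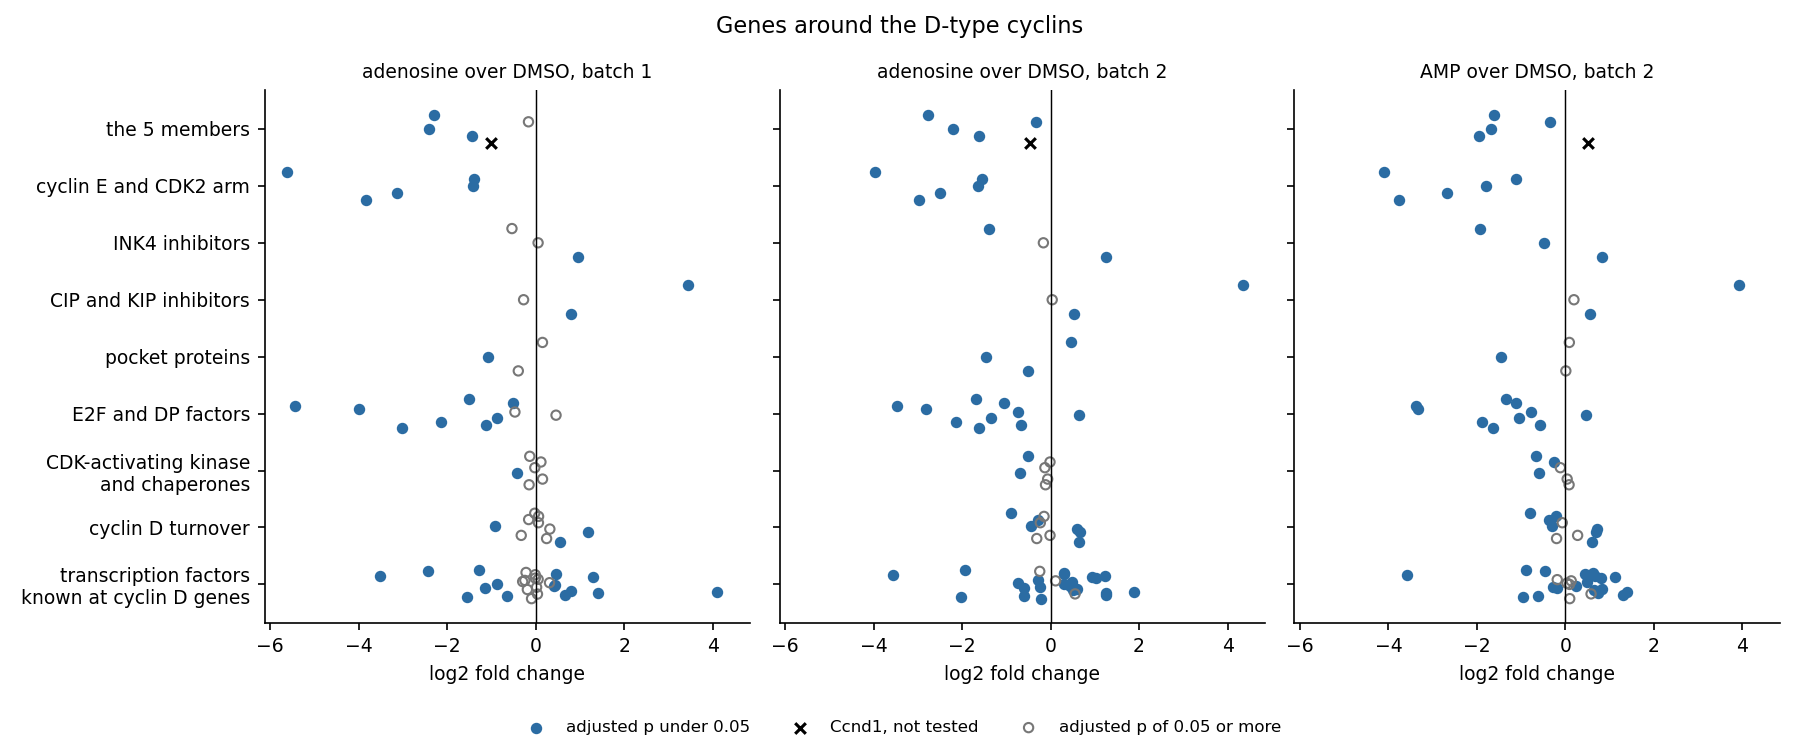
Log2 fold changes against DMSO of the 5 genes and of 8 lists of genes around them, 1 point per tested gene, filled where the adjusted p was under 0.05, with Ccnd1 as a cross because it was not tested. The cyclin E and CDK2 genes lie left of 0 in all panels (medians -3.13, -2.50 and -2.67), the E2F and DP factors lie mostly left (medians -1.32, -1.48 and -1.22), and the inhibitors lie on both sides.

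Genes that set the amount of cyclin D protein, or that activate or fold its kinases, changed in both directions. Of 10 genes of cyclin D turnover, 2 were called higher and 1 lower with adenosine in batch 1, 3 higher and 3 lower with adenosine in batch 2, and 3 higher and 4 lower with AMP. Set against the shares of all tested genes given above, the counts in batch 2 lie near the background. Ambra1, the substrate receptor that sends D-type cyclins for degradation, rose by 0.64 (adjusted p = 0.000394) with adenosine and 0.60 (adjusted p = 0.0008) with AMP in batch 2. In batch 1 it rose by 0.55 (adjusted p = 0.0103), a call lost without adenosine replicate 3 (adjusted p = 0.0506) or DMSO replicate 1 (adjusted p = 0.0576). Gsk3b, a kinase known to phosphorylate cyclin D1 ahead of its export and breakdown, fell by 0.93 in batch 1 (adjusted p = 0.000159). In batch 2 its log2 fold change was -0.45 with adenosine (adjusted p = 0.00314) and -0.30 with AMP (adjusted p = 0.0326). In CPM these batch 2 groups averaged 48.6 and 52.4, against 53.6 with DMSO. Gsk3a, of the same list, was not called in batch 1 (0.32, adjusted p = 0.305). It rose in batch 2 by 0.61 with adenosine (adjusted p = 0.00535) and by 0.72 with AMP (adjusted p = 0.0019). Cryab, also of this list, rose by 1.18 in batch 1 (adjusted p = 0.000318). In batch 2 Cryab rose by 0.66 with adenosine (adjusted p = 0.000234) and by 0.68 with AMP (adjusted p = 0.000218). Of 6 genes of the CDK-activating kinase and CDK chaperones, 1, 2 and 3 were called lower in the same order, where 19.5%, 34.5% and 31.8% of all tested genes were, and 0 higher, but under library totals 2 were called higher in each comparison and 0, 2 and 2 lower. Hsp90ab1, a chaperone of CDK4, fell by 0.51 (adjusted p = 6.71e-06) with adenosine and by 0.65 (adjusted p = 6.98e-07) with AMP in batch 2.

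Of 27 transcription factors known to act on cyclin D genes, 26 were tested in batch 1, and with adenosine 8 were called higher, against 19.6% of all tested genes, and 7 lower, against 19.5%. In batch 2, 25 were tested. With adenosine 13 of them were called higher, where 34.9% of all tested genes were, and 9 lower, where 34.5% were. With AMP 12 were called higher, where 33.7% of all tested genes were, and 7 lower, where 31.8% were. Foxm1, a factor of proliferating cells, fell in all 3 comparisons with DMSO, at -3.52, -3.55 and -3.57 on the log2 scale (adjusted p = 2.88e-05, 1.71e-08 and 2.74e-08). Fosb, an AP-1 subunit, rose by 4.11 (adjusted p = 9.24e-06) with adenosine in batch 1, from a DMSO level of 1.00 ± 0.60 CPM. In batch 2 it rose by 1.88 with adenosine (adjusted p = 2.98e-06) and by 1.40 with AMP (adjusted p = 9.51e-05). Between AMP and adenosine 4 of 25 were called higher and 1 lower, where 4.52% of all tested genes were called higher and 2% lower. Mycn was 1.07 higher with AMP than with adenosine (SE 0.20, adjusted p = 0.00343). It averaged 11.7 ± 2.19 CPM with AMP and 5.73 ± 1.45 CPM with adenosine, both below the 18.7 ± 1.56 CPM with DMSO. Against DMSO its log2 fold changes were -2.02 with adenosine (adjusted p = 1.75e-07) and -0.95 with AMP (adjusted p = 0.000267). Tcf7l2, which acts with beta-catenin, was 0.76 higher with AMP than with adenosine (SE 0.13, adjusted p = 0.0024). It averaged 34.3 ± 7.41 CPM with AMP and 20.8 ± 2.50 CPM with adenosine. Against DMSO it was lower with adenosine (-0.73, adjusted p = 0.000163) and not called with AMP (0.04, adjusted p = 0.822). Fos was 0.52 lower with AMP than with adenosine (SE 0.11, adjusted p = 0.0115), a call that was lost without adenosine replicate 3 (adjusted p = 0.0826). Against DMSO it was higher with both, by 1.25 with adenosine (adjusted p = 1.72e-07) and by 0.73 with AMP (adjusted p = 7.05e-05).

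Likeness to each gene was measured over the 9 treated libraries, as the root mean square difference in log2(CPM + 1) after scaling and after subtracting the mean of the DMSO libraries of the same batch. Genes averaging 10 CPM or more in each batch were compared, 8363 for Ccnd1, Ccnd3, Cdk4 and Cdk6 and 8364 for Ccnd2. Nearest to Ccnd1 were the membrane protein genes Tmem176a (difference 0.272) and Tmem176b (0.306) and the adenylate kinase gene Ak1 (0.312), which had log2 fold changes of -0.83 and -0.22 with adenosine and 0.30 with AMP. Nearest to Ccnd3 were the receptor gene Notch3 (0.200), the collagen chaperone gene Serpinh1 (0.218) and the uracil-DNA glycosylase gene Ung (0.228). For Cdk6 they were the cytokine gene Il34 (0.199), Iqsec3 (0.261) and the chloride transporter gene Clcn5 (0.276), and for Ccnd2 Zfp367 (0.242), Amacr (0.283) and the clamp loader gene Rfc3 (0.317). Among the nearest to Cdk4 were the ribosomal protein gene Rpl21 (0.0687) and Gng5 (0.0761). A difference of at most 0.5 was common for Cdk4, at 48.2% of compared genes, and rare for Cdk6, at 0.586%, Ccnd3, at 0.945%, and Ccnd1, at 1.21%. The likeness describes these libraries and carries no test.

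The authors' deposited table for batch 1 gives log2 fold changes coded as DMSO over adenosine, so that a positive value means lower with adenosine. In the authors' deposited table Ccnd3 stood at 2.42 and Cdk6 at 2.30, with adjusted p-values of 2.91e-53 and 2.4e-46. The authors' deposited table has 1.45 for Ccnd2 (adjusted p = 9.32e-05), 0.17 for Cdk4 (adjusted p = 0.336) and 1.02 for Ccnd1.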

How the data were processed

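Whole-transcriptome libraries of 15 samples were made by Smart-seq2 with Tn5 fragmentation, per the labels' protocols. Trim Galore, STAR, featureCounts, Subread, DESeq2 and the build mm10 are named in the submitters' processing notes, with no settings. Per the file headers, batch 1 counts are raw paired-end read counts per gene, made with featureCounts 1.6.4 over exons without a strand option. The deposited counts of batch 2 have 43 lines that name no gene, with 0.0589% of counts, which were left out. The deposited FPKM of both batches were used for levels, and the batch 1 values show that the authors applied a further factor per library. In batch 2 the ratio of FPKM to CPM also differed between libraries. Cdk4 had 146 FPKM at 497 CPM in adenosine replicate 1 and 180 FPKM at 530 CPM in DMSO replicate 1. The scaling behind the batch 2 FPKM is not stated. The authors' deposited log2 fold changes and adjusted p-values cover batch 1 only. Total counts per library limit the precision of low genes such as Ccnd2.

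Counts were tested with edgeR 4.0.16 in R 4.3.3: TMM scaling, filterByExpr by group, and a two-sided quasi-likelihood F test with Benjamini-Hochberg adjustment over all tested genes. Batch 1 was fitted on 6 libraries, batch 2 on 9, and the difference of the adenosine effects on 15. Each standard error is the log2 fold change divided by the root of its F value. CPM are counts scaled to the library total, without TMM factors. Alternatives were DESeq2 1.42.0, limma 3.58.1 on log2 FPKM, other scaling, no filter, a replicate block and each library left out. The procedure was tested on simulated data. The labels do not say that replicate numbers pair the samples, and the main fits take no pairing. Deviations of same-numbered libraries correlated by -0.08 to 0.13 (median 0.04) in batch 1 and -0.08 to 0.34 (median 0.12) in batch 2. Differently numbered libraries of different groups had -0.24 to 0.18 (median -0.02) and -0.30 to 0.18 (median -0.08). The replicate block, run as an alternative, takes the numbers as a pairing. No 2 replicates agreed within counting noise (chi-square over its degrees of freedom, 3.54 to 34.4 for 15 pairs).

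The 5 genes, the gene lists and the tests were chosen with earlier results of these data known. The text names the 5 genes, at most 3 called genes of a list per comparison by size of fold change, 9 genes always reported where tested (E2f1, Rb1, Cdkn1a, Cdkn1b, Cdkn2c, Ccne1, Ccne2, Cdk2 and Myc), and the 3 genes nearest to each of the 5, except 1 near Cdk4 that is not reported here. Pax7, Myf5 and the other single marker genes are described outside this rule, after their values were seen. So are some further comparisons of list genes already named, such as those of Mycn, Tcf7l2, Fos, Fosb, Gsk3b and Ambra1.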

Additional observations from a re-analysis of the deposited data

Results flagged for a closer look

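Of 37 genes tested for it (Ccnd2, Ccnd3, Cdk4, Cdk6, list genes named with adenosine and the 5 markers of satellite cells and myoblasts), 5 differed in their adenosine effect between batch 2 and batch 1, where dose and batch changed together. Of all 13057 genes tested, 11.9% were called for this difference, so nothing particular to these genes is read from the count. E2f1 fell less in batch 2, by a difference of 1.42 on the log2 scale (SE 0.33, adjusted p = 0.0105 by edgeR over 15 libraries). Fosb, an AP-1 subunit, rose less in batch 2, with a difference of -2.22 (SE 0.46, adjusted p = 0.00519). Cul4b, a ubiquitin ligase scaffold, had a difference of -0.87 (SE 0.18, adjusted p = 0.00486), at -0.90 in batch 2 and -0.02 in batch 1. Hsp90ab1, a chaperone of CDK4, had a difference of -0.37 (SE 0.11, adjusted p = 0.0374), at -0.51 in batch 2 and -0.13 in batch 1. Pax7 had a difference of 0.51 (SE 0.15, adjusted p = 0.0282), at 0.35 in batch 2 and -0.16 in batch 1, a call lost in 6 of 15 fits that left out 1 library (adjusted p from 0.0153 to 0.0701). With 1 of the 15 libraries left out, Hsp90ab1 was no longer called in 10 of 15 fits (adjusted p from 0.00983 to 0.131), nor was it called with library totals (adjusted p = 0.185), with the replicate block (adjusted p = 0.0723) or by limma on log2(FPKM + 1) with or without a filter (adjusted p = 0.0537 and 0.0746). E2f1 was not called by those limma fits (adjusted p = 0.0833 and 0.0895), while Fosb and Cul4b were called in each alternative run. The causes of these differences were not tested.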

How the results depend on the processing

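Against DMSO, Ccnd3 and Cdk6 stayed lower and past the threshold in every alternative that was run, with adjusted p of at most 0.00136 over the 3 comparisons, and Ccnd2 was lost only in batch 1 by limma on log2(FPKM + 1) without a filter (-0.60). Ccnd1 kept its signs throughout, but with library totals, which raise the median of all genes by 0.22, 0.32 and 0.28 in the 3 comparisons with DMSO, it stood at -0.15 with adenosine and 0.78 with AMP in batch 2. Library totals moved Cdk4 to 0.032 with adenosine in batch 1 and to -0.017 with adenosine and -0.073 with AMP in batch 2. They also lowered the genes called lower to 2891 of 4508 with adenosine and 2605 of 4159 with AMP in batch 2, and to 335 of 738 for the difference between batches. Myc then stood at 0.10 and 0.088 with adenosine in batches 1 and 2, Cdkn2c at 0.15 with adenosine in batch 2, Hsp90aa1 at 0.0067 with AMP, Cdkn1a at -0.011 for AMP over adenosine, Pax7 at 0.037 with adenosine in batch 1 and Myf5 at 0.090 with AMP. Calls were gained for Myc (0.36) and Cdkn1b (0.46) with AMP, and lost for Cdkn2c with AMP (-0.21), Mnat1 with adenosine in batch 1 (-0.24) and Rb1 with adenosine in batch 2 (-0.20) and for AMP over adenosine (0.48), where Myc was lost too (0.28).

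For AMP over adenosine, Ccnd3 was not called by limma with a pseudocount of 0.1 (0.51) or of 1 with or without a filter (0.45 in both), and genes called higher fell to 389 with a pseudocount of 0.1 and 376 without a filter, against 590. Limma without a filter gave 0.23 for Ccnd2 in the difference between batches, against -0.19. The filter on mean FPKM left Ccnd2 out of some limma fits.

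With the replicate block, which the labels do not establish as a pairing, Cdk6 was called for the difference between batches (-0.51, adjusted p = 0.0428), no other call of the 4 tested members changed, and genes called were 5004, 9239, 8742, 1159 and 1724 for adenosine in batch 1, adenosine and AMP in batch 2, AMP over adenosine and the difference, against 5420, 9067, 8564, 851 and 1557.

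With 1 library left out, Ccnd2 ran from -0.66 to 0.19 for AMP over adenosine and from -0.70 to 0.15 for the difference between batches, Ccnd3 from 0.38 to 0.66 and Cdk4 from -0.050 to 0.022 for AMP over adenosine, and Cdk6 from -0.63 to -0.40 for the difference. Genes called for AMP over adenosine ran from 408 without adenosine replicate 3 to 991 (higher 304 to 710, lower 104 to 281). For the difference they ran from 898 without DMSO replicate 2 of batch 2 to 2063 (higher 523 to 1035, lower 375 to 1028). For AMP over adenosine Ccne2 ran from -0.59 to 0.14 and E2f1 from -0.36 to 0.16. With adenosine Cdkn1b ran from -0.088 to 0.17 in batch 2, and in batch 1 Cdkn2c ran from -0.14 to 0.25 and Myc from -0.21 to 0.077. With AMP Myc ran from -0.011 to 0.16 and Rb1 from -0.050 to 0.044. The causes were not tested.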
